A study of Mus musculus with 1 sample.

Results

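The Schlafen genes Slfn1, Slfn2, Slfn4 and Slfn5 were followed through 1 single-cell RNA library of mouse bone marrow progenitors. They were 4 of the 9 Slfn rows of the count table and 4 of its 25661 genes. The 4 genes were chosen by their measured levels in these cells, both across the gated cell classes and between the tags, so both are given as descriptions and none is tested. The sorted cells were stained with PE-streptavidin hashtags A961 to A965, and pooled. Single cells were caught in microwells (BD Rhapsody), and their polyA RNA was made into a library with TAS-Seq, which reads 3′ ends. Per the labels, the pool held cKit+Lin- progenitors and GMP-MoPs from 1 naive mouse and from 1 mouse injected with LPS (lipopolysaccharide, a bacterial cell wall component), and cMoPs from 1 naive mouse. GMP-MoP and cMoP are names of monocyte progenitor populations. Strain, age, LPS dose and time after injection are not given in the sources used here. The labels do not say which tag marked which mouse or population, so A965 against A963 is a comparison of tags and no tag is given a treatment. Per the labels, 100 cells were loaded for each of A961, A962 and A964, and 15000 for each of A963 and A965.

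After filtering, 10528 cells remained. The large tags held most of them, 4716 in A963 and 5567 in A965, and the small ones 68 (A961), 104 (A962) and 73 (A964). No barcode number was used more than once among them. Median counts per cell were 20430.5 in A963 and 27205 in A965, and lay between 25826.5 and 27801 in the 3 small tags. Part of the cells of the small tags may come from the large pool, in a number that is not known. Xist, the noncoding RNA of the inactive X chromosome, stood at 611 CPM in A963 and 11.8 CPM in A965, so A963 and A965 also differ in a sex marker. In the small tags it stood at 486 CPM (A961), 409 CPM (A962) and 59.7 CPM (A964). Levels below are CPM, a gene's counts scaled to a fixed total of all counts summed over the cells of a group. No tag had a replicate, and each bracketed interval is an exact 95% interval for counting error only. A count may be a repeated read of 1 molecule, which such intervals do not cover.

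Schlafen genes are found in mammals and are induced in many cell types by interferon. The name comes from the German for sleep, because forced Slfn1 expression halted the growth of thymocytes. The mouse proteins are divided by length into short (Slfn1 and Slfn2), intermediate (Slfn3 and Slfn4) and long forms (Slfn5, Slfn8, Slfn9, Slfn10 and Slfn14), and the long ones carry a helicase-like part. Slfn2 is needed for T cell quiescence and binds transfer RNAs, which it protects from cleavage. Slfn4 is known as a myeloid gene that rises in macrophages given LPS or type I interferon. Slfn5 is a nuclear protein of the long group.

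The 9 Slfn rows lay in 1 stretch of chromosome 11, from 82951349 to 83286726 (335378 bases, GRCm38, GENCODE M21). No other protein-coding gene was annotated within it. Slfn5 (82951349 to 82964840, plus strand) was at one end. Slfn2 (83065112 to 83070678), Slfn1 (83116849 to 83122670) and Slfn4 (83175186 to 83190216) followed each other on the plus strand, with Slfn3 next to Slfn4. Slfn9, Slfn8 and Slfn10-ps, all on the minus strand, lay between Slfn5 and Slfn2.

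The sequences before the starts of Slfn1, Slfn2, Slfn4 and Slfn3 are shown because of their levels in the pooled tags. The first 3 of these had their highest level in the same cells, while Slfn3, the nearest neighbour of Slfn4, did not. Each is a 100-base part of the RefSeq promoter window (GRCm38.p6), 5′ to 3′, with the longest stretch found in the upstream 250 bases of all of the first 3 in capitals, or its shorter form in Slfn3.
Slfn1 (chr11:83116700-83116799, plus strand): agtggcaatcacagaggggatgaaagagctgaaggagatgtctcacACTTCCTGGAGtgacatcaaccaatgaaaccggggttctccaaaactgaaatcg
Slfn2 (chr11:83064992-83065091, plus strand): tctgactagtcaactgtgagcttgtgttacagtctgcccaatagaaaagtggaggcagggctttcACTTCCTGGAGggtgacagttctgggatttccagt
Slfn4 (chr11:83175066-83175165, plus strand): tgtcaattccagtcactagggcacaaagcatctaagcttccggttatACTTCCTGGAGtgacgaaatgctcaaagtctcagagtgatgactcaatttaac
Slfn3 (chr11:83191210-83191309, plus strand): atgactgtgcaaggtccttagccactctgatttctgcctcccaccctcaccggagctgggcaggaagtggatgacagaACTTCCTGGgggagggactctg
The stretch ACTTCCTGGAG began 74 bases before the RefSeq start of Slfn1, 55 before that of Slfn2 and 73 before that of Slfn4. Searched on both strands, it was present in 20 of 32851 upstream windows of 250 bases (0.0609%). It was picked as the longest stretch shared by the windows of Slfn1, Slfn2 and Slfn4, genes grouped by their levels in these cells. Its presence in those windows was therefore set in advance, and they are among the 20. Any link of the stretch to the levels was not tested. Slfn3 held the shorter ACTTCCTGG, contained in the longer stretch, 42 bases before its start, and 230 of the windows (0.700%) held that one. GAAANNGAAA, the core letters of the interferon-stimulated response element, was present in the windows of Slfn5, Slfn8 and Slfn9 and in 978 of all windows (2.98%). The Slfn5 window overlaps an exon of Slfn5 and is not printed. A match is a description of letters, and its absence in a window says nothing of a factor.

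Reads of related copies could be assigned to the wrong gene only where the copies share sequence. Of the stretches of 50 bases in its annotated transcripts, Slfn1 shared 0.606% with another Slfn gene, Slfn2 4.27%, Slfn4 8.15% and Slfn5 0%. In the last 600 bases, where 3′ reads gather, the shares were 0% for Slfn1, 9.44% for Slfn2 (all with Slfn4), 0% for Slfn4 and 0% for Slfn5. Gm20234 overlaps Slfn2 on the other strand and has a row of its own. It was highest in stem and multipotent cells, at 9.51 CPM, and at 1.14 CPM in late neutrophils. Whether counting used strand is not stated, so some Slfn2 counts in stem cells may be counts of Gm20234.

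Cells were gated by the markers of 13 cell classes, none of them a Schlafen gene. A cell took the class in which its mean log expression of the markers, in units of the SD over all cells, was highest and at least 1, at least 0.5 above the next, with at least 3 markers detected. Of the cells, 7505 (71.3%) fell in a gate and 3023 in none. Gates of at least 70 cells were used, which left 12. The late neutrophil gate held 335 cells and had 2129 CPM of Retnlg, 299 CPM of Mmp9 and 212 CPM of Cxcr2, genes of maturing neutrophils. The monocyte gate held 1224 cells, with 1373 CPM of Ms4a6c and 577 CPM of Ccr2, the chemokine receptor of monocytes leaving the marrow. The conventional dendritic gate held 324 cells, with 4467 CPM of the class II gene H2-Aa. Neutrophil precursors (1879 cells) had 52574 CPM of Camp, a secondary granule gene. The late neutrophil gate still had 42124 CPM of it, so its cells kept much secondary granule RNA. Markers of other cells were summed as lists, with A963 given first and A965 second. The 4 T and NK genes gave 219.6 and 314 CPM, and the 3 mature B genes 2.80 and 2.12 CPM. The 6 macrophage genes gave 47.1 and 52.8 CPM and the 4 stromal and endothelial genes to 29.0 and 29.0 CPM, and none of these genes was at 0. Their part in the Schlafen levels was not tested.

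Slfn1, the short Schlafen gene first tied to growth arrest, was highest in late neutrophils. Its level there was 188 CPM (178 to 198) over all tags, 140.3 CPM in A963 and 195 CPM in A965. Monocytes followed at 50.6 CPM (48.3 to 53.1) and nonclassical monocytes at 44.3 CPM (37.0 to 52.6), whose intervals overlapped. This order below late neutrophils is that of the pooled tags: in A963 conventional dendritic cells (19.2 CPM) had 1.23 times the level of monocytes (0.832 to 1.77), and in A965 0.217 times (0.164 to 0.280). Neutrophil precursors had 27.4 CPM (25.9 to 29.0) and conventional dendritic cells 16.4 CPM (13.3 to 20.1). The other 7 gates lay between 1.05 and 3.06 CPM, each with an interval overlapping that of the next. The steps along the neutrophil path were large. Slfn1 was 18.6-fold higher in neutrophil precursors than in granulocyte-monocyte progenitors (14.9 to 23.4) and 6.86-fold higher in late neutrophils than in neutrophil precursors (6.34 to 7.42), the latter 9.57-fold in A963 and 5.55-fold in A965. Monocytes had 34.3 times the level of granulocyte-monocyte progenitors (27.6 to 43.2), in A963 17.6 times and in A965 39.8 times.

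Slfn2, the quiescence gene, was high in a wider set of myeloid cells. It stood at 217 CPM (206 to 228) in late neutrophils, 191 CPM (187 to 196) in monocytes, 184 CPM (169 to 200) in nonclassical monocytes, 148 CPM (145 to 152) in neutrophil precursors and 122 CPM (113 to 131) in conventional dendritic cells. Only monocytes and nonclassical monocytes overlapped among these neighbours. Granulocyte-monocyte progenitors had 47.4 CPM (45.7 to 49.2), plasmacytoid dendritic cells 40.9 CPM (36.9 to 45.3) and basophil and mast cells 23.3 CPM (17.8 to 30.03). Lymphoid, stem, erythroid and megakaryocyte cells lay between 6.30 and 10.8 CPM. Slfn2 was 5.52-fold higher in granulocyte-monocyte progenitors than in stem and multipotent cells (4.44 to 6.94) in the pooled tags, 2.89-fold in A963 (2.20 to 3.86) and 10.1-fold in A965 (6.93 to 15.4). Slfn4 had a pooled ratio of 6.11 at the same step (3.06 to 14.3) and Slfn1 one of 0.759 (0.458 to 1.32). The stem cell counts under these ratios were 84 for Slfn2, 8 for Slfn4 and 19 for Slfn1, of which 9 came from 1 cell. The Slfn2 and Slfn4 shares of stem cells are read as background below, and some of the Slfn2 counts may be of Gm20234.

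Slfn4, the intermediate gene known from activated macrophages, had its 2 highest levels in the neutrophil gates. It stood at 164 CPM (154 to 173) in late neutrophils, 43.1 CPM (41.2 to 45.1) in neutrophil precursors and 10.99 CPM (7.51 to 15.5) in nonclassical monocytes. Granulocyte-monocyte progenitors had 4.998 CPM (4.44 to 5.61) and monocytes 3.54 CPM (2.93 to 4.23), and the other 7 gates lay between 0.818 and 3.25 CPM. Late neutrophils had 3.798 times the level of precursors (3.53 to 4.09) and 46.3 times that of monocytes (38.3 to 56.4). That last ratio was 69.9 in A963 and 36.5 in A965. The same ratio of late neutrophils to monocytes was 3.71 for Slfn1 (3.45 to 3.99), with 8.96 in A963 and 2.74 in A965. For Slfn2 it was 1.13 (1.07 to 1.198), with 1.22 in A963 (1.05 to 1.43) and 1.06 in A965 (0.992 to 1.12), where the interval included 1. Slfn1, Slfn2 and Slfn4 thus shared their highest gate in the pooled tags and differed in how far they extended to monocytes.

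Slfn5, the long nuclear gene, had another order. It was highest in conventional dendritic cells, at 64.5 CPM (58.2 to 71.4), with 83.3 CPM in A963 and 56.0 CPM in A965. Nonclassical monocytes had 36.7 CPM (30.1 to 44.4) and monocytes 34.4 CPM (32.4 to 36.4). Late neutrophils (19.7 CPM), stem and multipotent cells (19.1 CPM) and plasmacytoid dendritic cells (17.8 CPM) followed with overlapping intervals. The remaining gates lay between 9.69 and 13.3 CPM, with neutrophil precursors lowest. Conventional dendritic cells had 3.62 times the Slfn5 level of plasmacytoid ones (3.005 to 4.38) in the pooled tags. They had 3.68 times the level of monocytes in A963 (2.99 to 4.51) and 1.35 times in A965 (1.15 to 1.56). Below dendritic cells the order differed between the tags, and in A963 stem cells (23.6 CPM) stood beside monocytes (22.6 CPM). Granulocyte-monocyte progenitors had 0.588 times the level of stem cells (0.499 to 0.696).

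**Figure D1:**
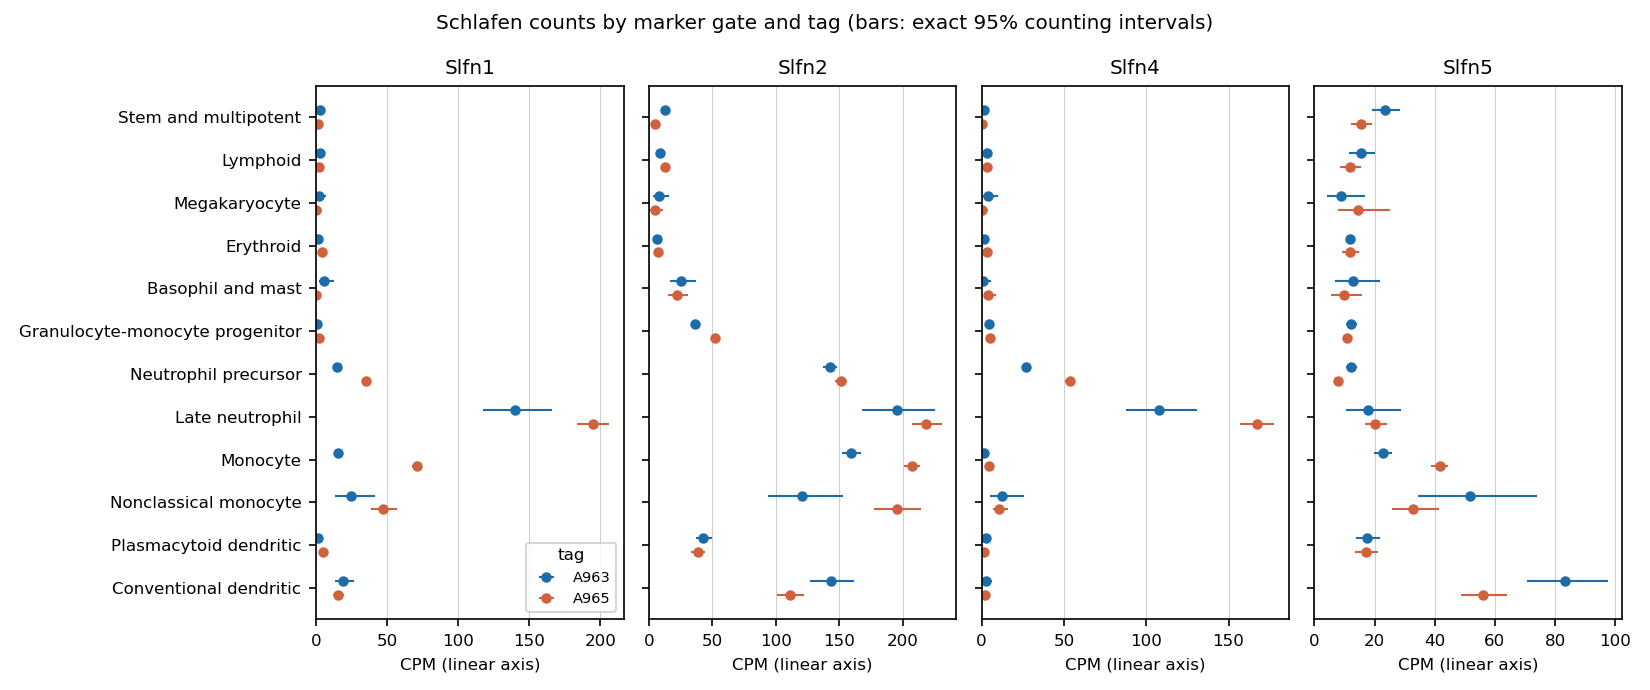
Level of each Schlafen gene (CPM, linear horizontal axis, its own range for each gene) in the 12 gates (rows), with A963 in blue and A965 in orange and bars for exact 95% counting intervals. Slfn1 and Slfn4 peak in the late neutrophil row in both tags (for Slfn1 140.3 and 195 CPM) and Slfn5 in the conventional dendritic row (83.3 and 56.0 CPM). Slfn2 is also highest in late neutrophils, but in A965 its ratio to monocytes is 1.06 (0.992 to 1.12), an interval that includes 1.

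The gate with the highest level was the same for each of the 4 genes under all 7 other ways of gating, scaling or weighting the cells. The sizes were less firm. Scaling by the median of ratios over genes in place of the total raised the late neutrophil levels to 326 for Slfn1, 376 for Slfn2 and 284 for Slfn4 on the CPM scale, and classes from clusters lowered Slfn1 to 129.5 CPM. Levels and numbers of cells are given apart here, but the counts of a cell cannot tell a gene in fewer molecules from a cell with more of other RNA.

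Shares of cells with a count were taken with every cell thinned to 8800 counts. Slfn1 was found in 61.2% of late neutrophils (55.7 to 66.4%), 23.1% of monocytes (20.8 to 25.6%), 14.2% of neutrophil precursors (12.7 to 15.9%) and 8.64% of conventional dendritic cells (5.82 to 12.2%). Slfn2 was found in 77.0% of late neutrophils (72.1 to 81.4%), 69.0% of monocytes (66.4 to 71.6%), 63.5% of neutrophil precursors (61.3 to 65.7%) and 28.4% of granulocyte-monocyte progenitors (26.0 to 30.9%). Slfn4 was found in 52.5% of late neutrophils (47.0 to 58.0%), 21.5% of neutrophil precursors (19.7 to 23.4%) and 3.84% of monocytes (2.83 to 5.07%). Slfn5 was found in 31.5% of conventional dendritic cells (26.5 to 36.8%) and 22.5% of monocytes (20.2 to 24.9%). Without thinning the late neutrophil shares were 75.8% for Slfn1, 89.0% for Slfn2 and 67.8% for Slfn4, at a median of 19007 counts per cell, and 40.1% of conventional dendritic cells had Slfn5, at a median of 16016.

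The erythroid gate served as the comparison for free RNA, at a median of 43228 counts per cell. There the thinned shares were 0.707% for Slfn1, 5.09% for Slfn2, 1.13% for Slfn4 and 10.7% for Slfn5, and the unthinned ones 2.97%, 13.01%, 3.82% and 33.0%. Granule transcripts were also present in erythroid cells, with Camp at 1.76% and Elane at 14.8% of their levels in neutrophil precursors. Between the tags, the erythroid level in A965 was 3.64 times that in A963 for Slfn1 (2.09 to 6.34). For Slfn4 it was 2.99 times (1.65 to 5.35). The Slfn4 level in erythroid cells was 3.77% of that in precursors, the Slfn2 level 4.46%, the Slfn1 level 7.06% and the Slfn5 level 121.9%. Erythroid cells therefore give no measure of free RNA for Slfn5, and its shares are not read against them. Whether the erythroid counts of the other 3 members are free RNA was not tested. As a label only, their shares at or below the erythroid ones are read as background. This covers Slfn2 in stem and multipotent cells (4.66%) and Slfn4 in stem and multipotent, conventional dendritic (0.926%) and plasmacytoid dendritic cells (0.914%). It also covers Slfn1 and Slfn4 in basophil and mast cells (0 and 0.840%) and Slfn1 in megakaryocyte cells (0%). Slfn5 was found in 10.6% of plasmacytoid dendritic cells, 9.50% of granulocyte-monocyte progenitors and 7.93% of neutrophil precursors. The intervals of Slfn1 in stem, granulocyte-monocyte and plasmacytoid dendritic cells overlapped its erythroid share.

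The other Slfn rows of the same stretch did not follow one order. Slfn8, a long Schlafen gene, was highest in plasmacytoid dendritic cells at 31.4 CPM (27.9 to 35.2), and conventional dendritic, lymphoid and stem cells followed at 21.6, 20.7 and 19.4 CPM. Slfn9 ranged from 4.50 CPM in erythroid cells to 40.9 CPM in megakaryocyte cells, Slfn3 from 2.33 to 8.87 CPM and the pseudogene Slfn10-ps from 0 to 11.3 CPM. Slfn14 had at most 0.125 CPM in any gate. In transcript sequence, Slfn8, Slfn9 and Slfn10-ps shared 11.2 to 19.7% of their 50-base stretches with other Slfn genes, so their counts are less certain than those of Slfn1 and Slfn5. The same holds for Slfn3, which shared 7.39%, all with Slfn4, and 14.9% in its last 600 bases.

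**Figure D2:**
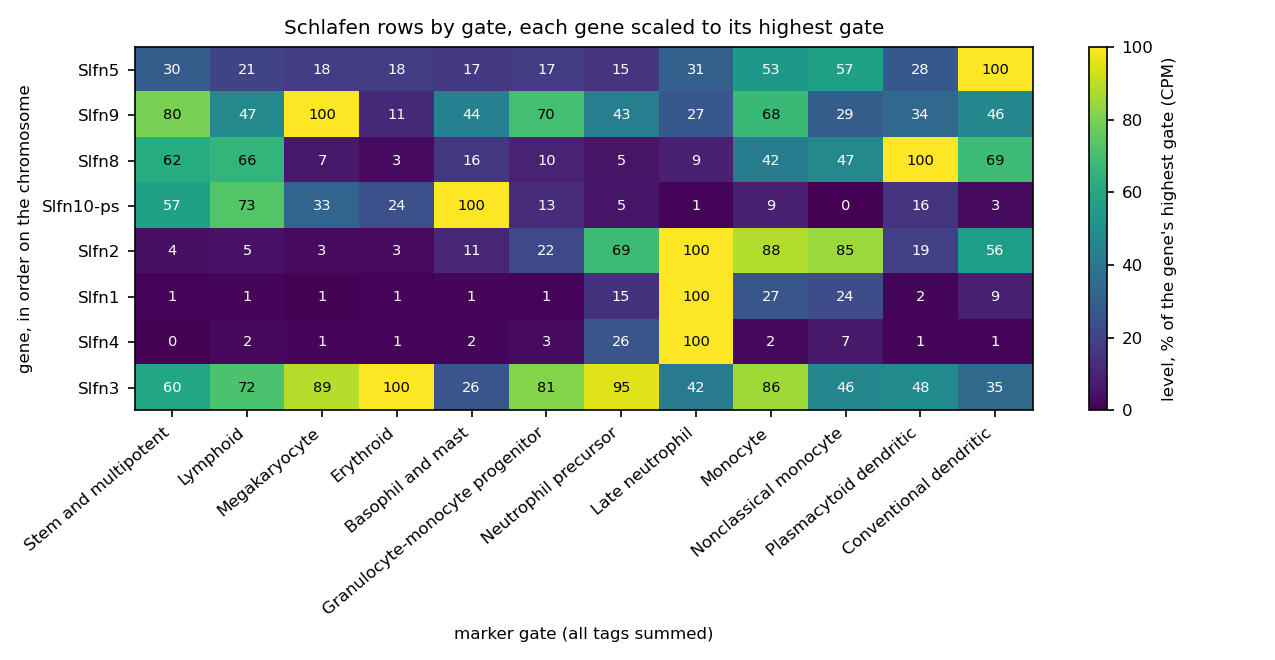
Level of 8 Slfn rows (vertical axis, in chromosome order) in the 12 gates (horizontal axis), all tags summed, each gene as a percent of its own highest gate (colour and printed number). Slfn2, Slfn1 and Slfn4, neighbours on the chromosome, all reach 100 in late neutrophils, while Slfn3 and the rows from Slfn5 to Slfn10-ps peak elsewhere.

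Over 21 points (gates split into A963 and A965, with at least 50 cells each), the log2 levels of Slfn1 correlated with those of Slfn2 at r = 0.81 and of Slfn4 at r = 0.81, and Slfn2 with Slfn4 at r = 0.59. Slfn5 correlated with Slfn2 at r = 0.47, with Slfn1 at r = 0.35 and with Slfn4 at r = -0.13, and with Slfn8 at r = 0.53. These points share 1 library and differ in depth, so the values are descriptions. Among 4609 genes ranked by the same measure, the 5 most like Slfn4 were Ceacam10 (r = 0.98), Trp53inp2, Ankrd22, Mmp25 and Retnlg (r = 0.97), of which Retnlg was itself a marker of the late neutrophil gate. Mmp25 encodes a membrane-bound metalloproteinase of neutrophils. Those most like Slfn1 were Rasgrp4 (r = 0.92), Lilrb4a, Lilr4b, Kdm7a and Degs1 (r = 0.88). Rasgrp4 encodes a Ras activator of myeloid cells, and the Lilr genes encode immunoglobulin-like receptors of leukocytes. Among those most like Slfn2 were Actb (r = 0.96), Rhog, Arpc5 and AB124611 (r = 0.95). Actb and Arpc5 encode actin and a part of the complex that branches it. Those most like Slfn5 were Tbc1d9 (r = 0.92), Ifi205, Naaa, Pid1 and Marchf1 (r = 0.87). Marchf1 encodes a ubiquitin ligase that acts on class II molecules in dendritic cells, and Ifi205 belongs to an interferon-induced family.

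Across the tags, with all cells of a tag summed, Slfn1 stood at 14.8 CPM in A961, 31.6 CPM in A962, 8.13 CPM in A963, 38.1 CPM in A964 and 29.9 CPM in A965. A961 and A963 were low and the intervals of the other 3 lay above them. Slfn2 stood at 138 CPM in A961, 103 CPM in A962, 70.3 CPM in A963, 182 CPM in A964 and 108 CPM in A965. A963 was lowest and A964 highest. Slfn4 stood at 5.09 CPM in A961, 10.3 CPM in A962, 8.79 CPM in A963, 25.4 CPM in A964 and 22.4 CPM in A965. For Slfn4 in A964, 31 of its 60 counts came from 1 cell. Slfn5 stood at 11.2 CPM in A961, 22.3 CPM in A962, 16.0 CPM in A963, 18.6 CPM in A964 and 16.5 CPM in A965, with overlapping intervals for A963, A964 and A965. The tags differ in the classes they hold: the monocyte gate took 55.9% of the cells in A961, 34.2% in A964 and 14.4% in A962.

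The comparison of A965 with A963 asked how far the Schlafen genes differ between the large tags. Over all cells, Slfn1 was 3.68-fold higher in A965 (3.44 to 3.95) and Slfn4 2.55-fold higher (2.38 to 2.74). Slfn2 was 1.54-fold higher (1.497 to 1.58), and Slfn5 had a ratio of 1.03 (0.971 to 1.09). A gene was counted as different when its ratio, with 10 CPM added to both levels, reached 1.5 either way. Slfn1 and Slfn4 passed as higher, and Slfn2 did not pass unless levels were scaled by the median of ratios, which gave it 1.62. By the same rule, 1.6% of the 10016 genes with at least 5 CPM in one of the tags were higher in A965 and 2.21% lower, and of all 25661 genes 0.624% and 0.861%. The members had been listed with these levels known, so nothing is read from their count against that background. Of the other Slfn rows, Slfn3 had a ratio of 0.964, Slfn8 0.851, Slfn9 1.19 and Slfn10-ps 0.917.

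The tags differ in the numbers of cells of each class, which enters the values over all cells. Late neutrophils were 1.27% of A963 cells and 4.85% of A965 cells. They gave 13.8% of the Slfn1 counts of A963 and 22.1% of those of A965, and 9.83% and 25.4% of the Slfn4 counts. Monocytes were 9.31% and 12.7% of cells and gave 18.0% and 27.7% of the Slfn1 counts. Neutrophil precursors, 19.9% and 16.6% of cells, gave 43.7% and 35.8% of the Slfn4 counts. The ratios were therefore taken again within the 8 gates that had at least 100 cells in each tag.

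In monocytes, Slfn1 stood at 15.7 CPM in A963 and 71.1 CPM in A965, a 4.54-fold higher level (3.87 to 5.34). Over the alternatives this ratio ran from 3.27, with classes from clusters, to 4.92, with thinned cells. Slfn5 was 1.84-fold higher there (22.6 and 41.6 CPM; 1.59 to 2.12) and Slfn2 1.30-fold higher (159 and 207 CPM; 1.23 to 1.37). Slfn4 was low in both, at 1.54 and 4.58 CPM. Slfn1 and Slfn5 passed the 1.5-fold rule, beside 2.18% of the genes that could pass in that gate, and 0.966% passed as lower. For Slfn5 the call was lost with a looser gate (ratio 1.67) and with classes from clusters (1.48). With a stricter gate Slfn2 (1.53) and Slfn4 (5.71) also passed. The thinned share of monocytes with Slfn1 was 7.29% in A963 (5.04 to 10.1%) and 33.7% in A965 (30.2 to 37.3%). Other genes of the gate moved alongside: Mpo, a gene of earlier progenitors, stood at 633 and 373 CPM, F13a1 at 699 and 602 CPM, Fn1 at 88.4 and 131 CPM and Ccr2 at 463 and 642 CPM. The part of these in the Schlafen ratios was not tested.

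In neutrophil precursors, Slfn1 stood at 14.7 CPM in A963 and 35.1 CPM in A965 (2.39-fold; 2.08 to 2.76) and Slfn4 at 26.8 and 53.6 CPM (2.00-fold; 1.80 to 2.22). Both passed as higher, beside 1.57% of genes that could pass, with 0.638% passing as lower. Slfn2 differed little, at 143 and 151 CPM (1.06-fold; 1.01 to 1.11), and Slfn5 was lower in A965, at 12.2 and 7.94 CPM (ratio 0.648; 0.532 to 0.790) without passing the rule. Camp stood at 63566 and 45496 CPM, Fcnb at 1710 and 1515 CPM and Retnlg at 63.0 and 88.6 CPM in the same cells, and their part was not tested. In late neutrophils, with 60 and 270 cells too few in A963 for the within-gate rule, Slfn1 stood at 140.3 CPM (117 to 166) and 195 CPM (184 to 206), Slfn4 at 108 CPM (87.7 to 131) and 167 CPM (157 to 178), and Slfn2 at 195 and 219 CPM.

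In granulocyte-monocyte progenitors, Slfn2 was 1.41-fold higher in A965 (36.6 and 51.8 CPM; 1.29 to 1.55), and the other 3 members stayed under 13 CPM in both tags. In that gate 0.896% of genes passed as higher and 0.36% as lower, and no member did. In conventional dendritic cells, Slfn5 stood at 83.3 and 56.0 CPM (ratio 0.671; 0.544 to 0.830) and Slfn2 at 144 and 111 CPM (0.773; 0.663 to 0.904), both lower in A965 without passing, beside 2.69% of genes passing as higher and 3.99% as lower. Slfn5 passed as lower there with a looser gate (0.576), with thinned cells (0.569) and with the mean over cells (0.586). Slfn1 passed as lower there with a looser gate, at 0.503, from 19.2 and 15.4 CPM in the gate used (0.801; 0.521 to 1.25), and its ratio was 1.47 with classes from clusters. The ratio of Slfn5 was thus above 1 in monocytes and below 1 in conventional dendritic cells, neutrophil precursors and stem cells.

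In stem and multipotent cells, Slfn2 had 57 counts in A963 and 27 in A965, which gave 12.7 and 5.12 CPM and a ratio of 0.404 (0.246 to 0.649). Without cells that Scrublet called doublets it was 0.790, with a looser gate 0.685, with thinned cells 0.688 and with classes from clusters 0.893. With median-of-ratios scaling it was 0.418 and as a mean over cells 0.498, and with a stricter gate it was 0.398 and passed as lower. The share of these cells with Slfn2 was at the level read as background. Slfn5 stood at 23.6 and 15.4 CPM there (0.652; 0.482 to 0.879), and 0.58% of genes passed as higher and 1.35% as lower. In lymphoid cells no member had an interval away from 1, and 2.09% and 2.74% of genes passed. In erythroid cells, Slfn1 stood at 1.16 and 4.22 CPM and Slfn4 at 1.16 and 3.47 CPM, on 23 to 29 counts each, and 0.904% and 0.154% passed. In plasmacytoid dendritic cells, Slfn1 stood at 1.16 and 4.83 CPM on 5 and 23 counts, and 1.1% and 2.06% passed. No member passed in these 4 gates as gated here. The Slfn1 ratio of plasmacytoid dendritic cells was 1.16 with classes from clusters and 7.28 with a stricter gate.

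**Figure D3:**
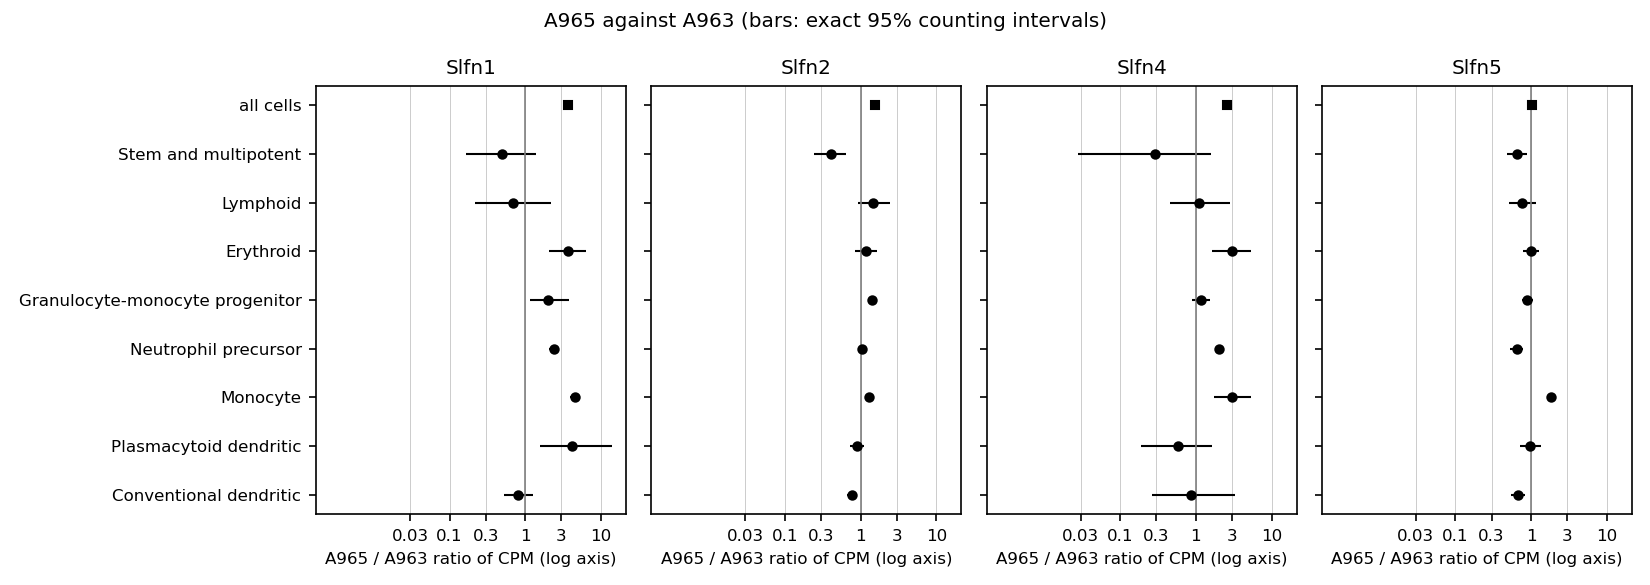
Ratio of the level in A965 to that in A963 (log axis) for each Schlafen gene over all cells (square) and within 8 gates (circles), with bars for exact 95% counting intervals and a line at 1. Slfn1 lies at 4.54 in monocytes and 2.39 in neutrophil precursors, and Slfn5 lies above 1 only in monocytes among the gates whose interval leaves out 1.

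The small tags could be set beside these only in monocytes, where each had at least 15 cells, and for A962 in granulocyte-monocyte progenitors. In monocytes, Slfn1 stood at 13.8 CPM in A961 (38 cells; 7.56 to 23.2), 75.8 CPM in A962 (15 cells; 50.4 to 110) and 41.6 CPM in A964 (25 cells; 27.9 to 59.7). These Slfn1 counts came from 4 cells in A961, 6 in A962 and 8 in A964. In A961, 1 cell gave 8 of the 14 counts, and in A962 1 cell gave 13 of the 28. On these few cells, A961 lay with A963, A962 with A965, and A964 between. By Xist over all cells of a tag, A962 instead stood nearer A963 and A964 nearer A965. Slfn2 stood at 161 CPM in A961 (137 to 188), 301 CPM in A962 (247 to 362) and 215 CPM in A964 (182 to 252). Slfn5 stood at 5.93 CPM in A961 (2.17 to 12.9), 106 CPM in A962 (75.1 to 144) and 10.04 CPM in A964 (4.04 to 20.7). For Slfn5, A961 lay below both large tags and A962 above them, with 12 of the 39 counts of A962 from 1 cell. A964 lay below A965, while its interval overlapped that of A963 (19.9 to 25.6). Slfn4 had 1 to 4 counts in each small tag. The 29 granulocyte-monocyte progenitors of A962 had 49.1 CPM of Slfn2 (37.1 to 63.8) and no Slfn1 count, which allows up to 3.24 CPM.

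**Figure D4:**
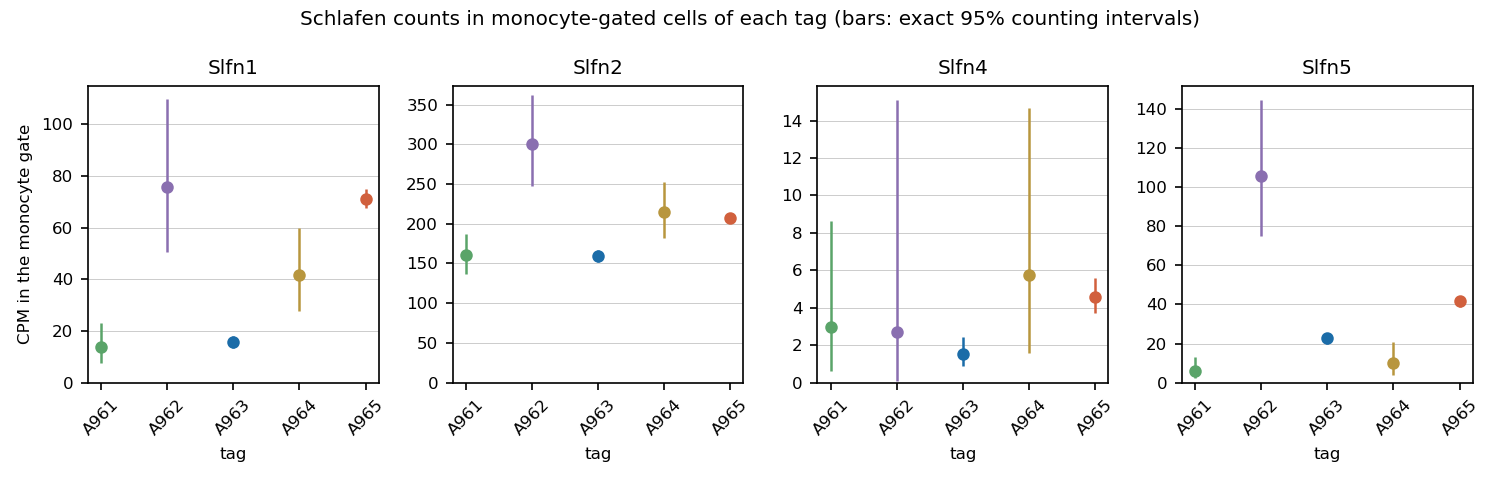
Level of each Schlafen gene (CPM, linear axis from 0) in monocyte-gated cells of the 5 tags, with bars for exact 95% counting intervals. Slfn1 is low in A961 and A963 (13.8 and 15.7 CPM) and higher in the other tags, and Slfn5 is highest in A962 (106 CPM). The Slfn1 counts came from 4 cells in A961, 6 in A962 and 8 in A964.

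Schlafen genes are read out with other interferon genes, so lists of the pathway were set beside them. Over all cells, 2 of 9 Schlafen rows passed as higher in A965 (Slfn1 and Slfn4) and none as lower, with a median log2 ratio of 0.03. The median was -0.003 over all genes and -0.05 over the genes that could pass, a limit on level that the lists did not have. Of the genes that could pass, 1.6% passed as higher and 2.21% as lower. Of 14 interferon signalling genes (receptors, kinases and transcription factors), none passed either way, with a median of 0.03. Of 20 interferon-stimulated genes, none passed as higher and Isg20, an interferon-induced exonuclease, passed as lower (81.2 CPM in A963, 25.3 CPM in A965), with a median of -0.03. None of 6 genes of transfer RNA fragments and ribonucleases passed (median 0.19), none of 10 quiescence genes (median -0.01) and none of 17 proliferation genes (median -0.14). With 50 CPM added, no Schlafen row passed.

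In monocytes, 1 of 14 signalling genes passed as higher, Irf7 (15.7 and 32.7 CPM), the transcription factor that amplifies interferon responses. Of 20 interferon-stimulated genes, 3 passed as higher and none as lower: Oas1a (25.3 and 53.6 CPM), Oasl2 (5.89 and 14.9 CPM) and Rtp4 (2.17 and 12.8 CPM). Klf2, a transcription factor of quiescent leukocytes, stood at 6.97 and 25.8 CPM and Rnase4 at 11.1 and 27.2 CPM, each the only gene of its list to pass. The list medians in monocytes were 0.18 for signalling, 0.10 for interferon-stimulated genes and 0.24 for the 9 Schlafen rows. The median was -0.05 for the genes that could pass, a limit on level that the lists did not have. Of those genes, 2.18% passed as higher in monocytes and 0.966% as lower. In conventional dendritic cells, where Slfn5 was lower in A965, the signalling gene Ifnar1, a chain of the type I interferon receptor, passed as lower (52.9 and 31.8 CPM). So did 3 interferon-stimulated genes, Isg15 (42.7 and 24.6 CPM), Ifi47 (40.6 and 23.6 CPM) and Xaf1 (40.1 and 21.1 CPM), and none passed as higher. Isg15 also passed as lower in erythroid cells (48.4 and 21.6 CPM) and plasmacytoid dendritic cells (28.9 and 12.4 CPM). Slfn5 differed little in those gates, at 11.8 and 11.8 CPM in erythroid and 17.5 and 17.0 CPM in plasmacytoid dendritic cells. Any link of Slfn5 to these genes was not tested. In neutrophil precursors, Oas1a alone of both lists passed, as higher (10.9 and 24.2 CPM). There 1.57% of the genes that could pass were higher and 0.638% lower. These genes outside the members were named after their values were seen.

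Because Slfn1 and Slfn2 are known for growth arrest and quiescence, cells of each gate and tag were ranked by the summed counts of 17 proliferation genes, scaled by cell total, and split into 3 equal groups. The group with the fewest proliferation counts (low group) was set beside the group with the most (high group), and each pair of values below gives the low group first. The split was chosen after the data had been seen. In monocytes of A965, Slfn1 stood at 185 CPM in the low group and 56.5 CPM in the high one (3.27-fold; 2.90 to 3.68). In A963 it stood at 31.4 and 10.2 CPM (3.06-fold; 2.10 to 4.55). Slfn5 stood at 126 and 22.1 CPM in A965 monocytes (5.71-fold; 4.80 to 6.83) and at 37.8 and 19.97 CPM in A963 (1.89-fold; 1.41 to 2.55). Slfn2 did not part the groups there, at 248 and 243 CPM in A965 (1.02-fold; 0.946 to 1.10) and 162 and 169 CPM in A963 (0.957; 0.852 to 1.08). Slfn4, low in monocytes, stood at 14.5 and 2.46 CPM in A965 (5.90-fold; 3.47 to 10.5). Among A965 monocytes the low group had a median of 15601 counts per cell and the high one 30203, and Fn1 stood at 211 and 158 CPM.

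In conventional dendritic cells, Slfn5 stood at 230.5 and 26.9 CPM in A963 (8.56-fold; 5.26 to 14.6) and at 154 and 24.4 CPM in A965 (6.30-fold; 4.38 to 9.25). H2-Aa, the class II gene of mature dendritic cells, stood at 7834 and 4209 CPM in A963 and at 5868 and 3931 CPM in A965 alongside. Slfn5 was also higher in the low group of stem and multipotent cells, at 50.7 and 15.4 CPM in A963 (3.30-fold; 2.08 to 5.32) and 28.2 and 9.65 CPM in A965 (2.92-fold; 1.66 to 5.26), where Slfn1 had 0 to 3 counts in a group. In lymphoid cells it stood at 31.2 and 9.83 CPM in A963 and at 21.6 and 8.10 CPM in A965.

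In late neutrophils of A965, Slfn1 stood at 324 and 90.7 CPM (3.57-fold; 3.06 to 4.19), Slfn4 at 251 and 75.7 CPM (3.32-fold; 2.79 to 3.96) and Slfn2 at 245 and 183 CPM (1.34-fold; 1.17 to 1.54). In the 20 and 20 cells of A963, Slfn1 stood at 247 and 71.3 CPM and Slfn4 at 175 and 80.2 CPM. Retnlg, which rises as neutrophils mature, stood at 4135 and 1039 CPM in A965 and at 5773 and 860.1 CPM in A963. In neutrophil precursors of A963, Slfn1 stood at 31.2 and 7.30 CPM (4.27-fold; 3.04 to 6.10) and Slfn4 at 44.2 and 21.6 CPM (2.05-fold; 1.64 to 2.56). In those of A965, Slfn1 stood at 60.03 and 23.7 CPM (2.53-fold; 2.16 to 2.97) and Slfn4 at 75.4 and 44.4 CPM (1.70-fold; 1.497 to 1.93). In granulocyte-monocyte progenitors the direction for Slfn2 was the opposite, with 19.4 CPM in the low group and 53.9 CPM in the high one in A963 (0.359; 0.283 to 0.451), and 39.6 and 71.2 CPM in A965 (0.557; 0.498 to 0.621). Slfn4 had 2.25 and 8.76 CPM in the same groups of A965 (0.257; 0.165 to 0.390) and 3.32 and 4.82 CPM in A963 (0.689; 0.354 to 1.30), where the interval included 1. The order of Schlafen level and proliferation counts thus depended on the gate. Retnlg in late neutrophils and H2-Aa in conventional dendritic cells moved with it. Other maturation genes differed less between the groups. Fn1 stood at 97.4 and 104 CPM in A963 monocytes. In neutrophil precursors Retnlg stood at 65.5 and 61.0 CPM in A963 and at 99.1 and 78.3 CPM in A965. The part of maturation was not tested.

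**Figure D5:**
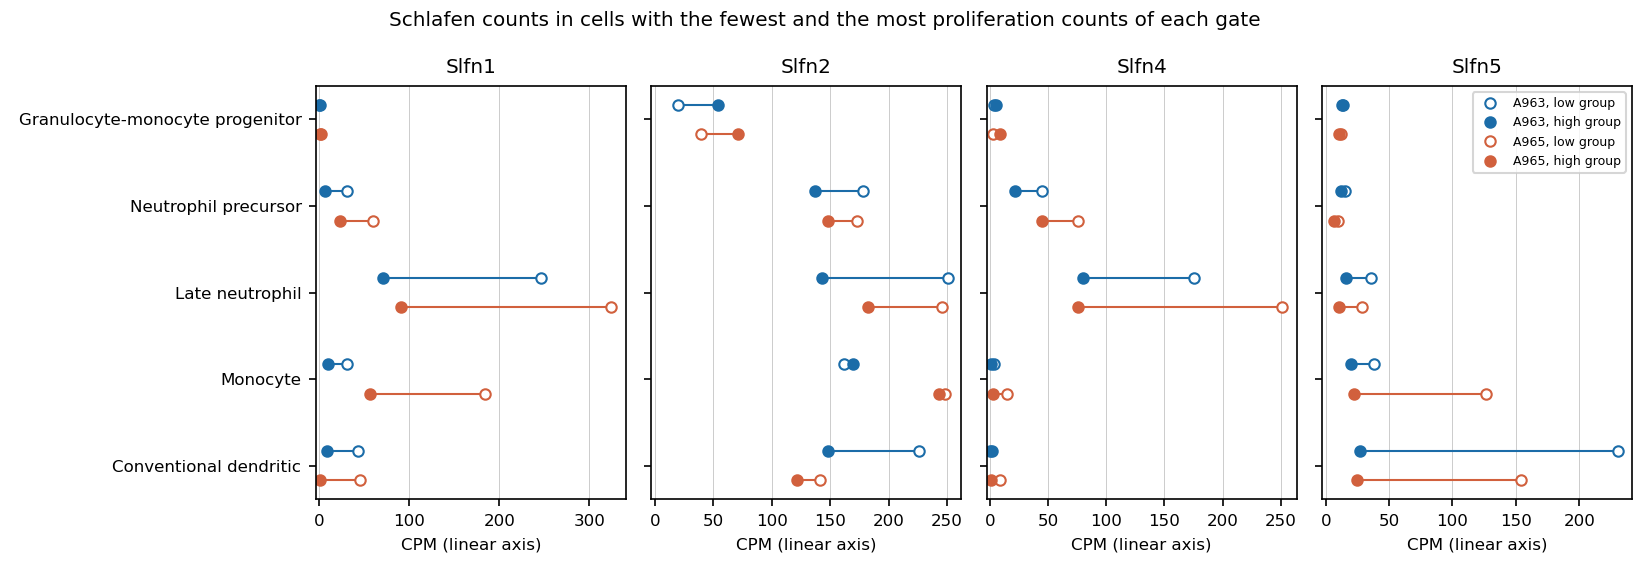
Level of each Schlafen gene (CPM, linear axis) in the low group, with the fewest proliferation counts (open circle), and the high group, with the most (filled circle), for 5 gates and for A963 (blue) and A965 (orange). Slfn5 in conventional dendritic cells spans 26.9 to 230.5 CPM in A963, while for Slfn2 in granulocyte-monocyte progenitors the open circle lies to the left (19.4 against 53.9 CPM).

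Members were also found together in single cells. After thinning, Slfn1 and Slfn2 were both found in 51.9% of A965 late neutrophils (45.7 to 57.9%), where the product of the single shares was 50.6%. Slfn1, Slfn2 and Slfn4 together were found in 31.5% of them (26.0 to 37.4%; product 27.7%) and none of the 4 members in 5.56% (3.14 to 8.998%). In A965 monocytes, Slfn1 and Slfn5 were both found in 16.0% of cells (13.4 to 18.9%), above the product of 9.28%. Slfn1, Slfn2 and Slfn5 together were found in 13.9% (11.4 to 16.6%; product 6.66%). In A963 monocytes, Slfn1 and Slfn5 were both found in 2.96% of 439 cells (1.59 to 5.01%; product 1.06%). In neutrophil precursors of A965, Slfn1 and Slfn5 were both found in 1.08% (0.521 to 1.99%), beside a product of 1.34%. Of granulocyte-monocyte progenitors, 67.2% in A963 and 58.4% in A965 had no count of any member after thinning.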

How the data were processed

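One single-cell library of pooled, hashtagged mouse bone marrow progenitors was used. The values were raw counts, whole numbers for every gene in every cell, and the cell names carry the tag, per the file headers of the deposited table. The aligner, annotation and counting tool, and whether counts are of molecules or reads, are not given in the sources used here. Per the submitters' processing notes, R 4.2.1 and Seurat 4.2.0 were used and the build was GRCm38. Cell totals ran from 8822 to 140994.

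Cells with a single tag (10535 of 10731) stayed if 500 or more genes were detected and no more than 20% of counts were mitochondrial; 7 cells failed. A further 190 cells named doublets by the authors entered no comparison. The 6 columns for cells with no tag detected were not used. Leaving out the 226 cells that Scrublet called doublets was an alternative. Of 111 gate markers, 110 were in the table. Counts were summed over the cells of a group and scaled to CPM. Levels have exact Poisson intervals, shares Clopper-Pearson intervals, and ratios exact conditional counting intervals, all at 95%, computed with numpy 2.4.6 and scipy 1.17.1. Clusters used scanpy 1.11.5 and leidenalg 0.10.2, without the Slfn genes and X- and Y-linked genes, with 2000 variable genes, 30 components, 15 neighbours and resolution 1. With 1 library and no replicate of any tag, nothing was tested and p-values are absent. The ratio step was also run on simulated Poisson counts, the model that the intervals assume. That run does not cover counts clumped in single cells or repeated reads. The calls are counted over genes with at least 5 CPM in one tag, a limit set after the data were seen.

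The members, the marker lists and the pathway lists were chosen with earlier results of these data known. The gate limits were set after the data had been seen. The genes named are the 4 members, the other Slfn rows and, for each member, the 5 genes with the highest Pearson correlation of log2 levels with 10 CPM added, among genes with at least 50 CPM at one point, leaving out mitochondrial, ribosomal protein, Gm-number, Rik and Slfn names. Genes of the lists that passed the 1.5-fold rule are named as examples. Some genes that these rules name are not reported here. Sequences are from RefSeq promoter windows (GRCm38.p6) and gene positions from GENCODE M21. No protein sequence was used here.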

Additional observations from a re-analysis of the deposited data

Results flagged for a closer look

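For Slfn2, the ratio of A965 to A963 pointed opposite ways in different gates. It was 1.41 in granulocyte-monocyte progenitors (1.29 to 1.55) and 0.404 in stem and multipotent cells (0.246 to 0.649). The difference between these ratios was not tested, and the second moved to 0.790 without the cells that Scrublet called doublets. In stem and multipotent cells the share of cells with Slfn2 was at the erythroid level, read as background, and part of the counts may be those of the antisense gene Gm20234.

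For Slfn5, the ratio was 1.84 in monocytes (1.59 to 2.12) and 0.648 in neutrophil precursors (0.532 to 0.790). The difference between these was not tested either. In neutrophil precursors Slfn5 was low, at 12.2 and 7.94 CPM, and no free RNA measure is at hand for it.

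Cells that the authors named doublets entered no comparison. They nevertheless held members above the limit that a count of 0 allows (0.526 CPM). Slfn1 stood at 29.3 CPM, Slfn2 at 109.8 CPM, Slfn4 at 15.8 CPM and Slfn5 at 14.4 CPM in the 190 cells.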

How the results depend on the processing

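The highest gate of each member stayed the same under the 7 alternatives run, and no result turned its direction among called values. Late neutrophil levels of Slfn1, Slfn2 and Slfn4 were 233, 237 and 215 CPM with a stricter gate, 129.5, 205 and 129 CPM with classes from clusters, 326, 376 and 284 with median-of-ratios scaling, 209, 230.3 and 187 CPM with thinned cells and 216, 230.4 and 183 CPM as a mean over cells. A looser gate gave Slfn1 162 and Slfn4 145 CPM. Slfn5 in conventional dendritic cells was 48.4 CPM with classes from clusters, 80.7 CPM with thinned cells and 82.2 CPM as a mean over cells. Shares in late neutrophils for Slfn1, Slfn2 and Slfn4 were 75.8, 89.0 and 67.8% without thinning and 39.4, 51.3 and 35.2% from 2 counts. A stricter gate gave Slfn1 69.2 and Slfn4 60.7%, a looser one Slfn1 54.4%, and classes from clusters Slfn1 47.6 and Slfn4 47.0%. Slfn5 shares in conventional dendritic cells were 25.6% with classes from clusters, 40.1% without thinning and 16.7% from 2 counts.

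Over all cells, the A965 to A963 ratio of Slfn1 was 4.10 without Scrublet doublets. That of Slfn2 was 1.62 (then passing 1.5-fold) with median-of-ratios scaling, 1.47 with thinned cells and 1.48 as a mean over cells, and that of Slfn5 was 1.19 and 1.13 under the last 2. Of the 8 gates, a stricter gate put 1 for Slfn2 as higher and 1 as lower and 2 for Slfn4 as higher. A looser gate put 1 for Slfn1 as lower, 0 for Slfn5 as higher and 1 as lower. Classes from clusters left 0 for Slfn5 as higher, and thinned cells and the mean over cells each put 1 as lower. The quiescence list had 1 gene higher without Scrublet doublets, with median-of-ratios scaling, with thinned cells and with 1 CPM added. With 1 CPM added, signalling had 1 gene lower, interferon-stimulated genes 3 higher and 2 lower, and ribonucleases 2 higher; with 50 CPM added the Schlafen rows had 0 higher. The cause of these shifts was not tested. Of the other alternative values, 138 of the summary ones and 719 of the single ones moved by less than their interval or 1.5-fold, and 257 single ones by more.

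No paired analysis was possible because each tag is a single sample of 1 library, with no numbers to pair. Some levels under about 5 CPM rest on few counts, and the part of free RNA in such levels was not tested. Gates of under 100 cells in A963 limit what late neutrophils and nonclassical monocytes can show.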

Other observations

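The 3023 cells in no gate had 20.1 CPM of Slfn1, 103.5 CPM of Slfn2, 17.0 CPM of Slfn4 and 13.6 CPM of Slfn5. In those of A963 and A965, Slfn1 stood at 9.09 and 25.9 CPM, Slfn2 at 82.2 and 114 CPM, Slfn4 at 10.3 and 21.3 CPM and Slfn5 at 15.5 and 12.4 CPM. In the ungated cells of the small tags, Slfn1 stood at 3.34 CPM in A961 (17 cells), 40.9 CPM in A962 (32 cells) and 37.0 CPM in A964 (25 cells).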
